A study of Mus musculus with 15 samples.

Results

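The 6 genes described here belong to the death receptor pathway of apoptosis: Fas, Tnfrsf10b, Eda2r, Pidd1, Casp8 and Dapk1. They were set beside the regions in which the transcription factor p53 was called in mouse liver, spleen and thymus by ChIP-seq, in which chromatin is enriched with an antibody and its DNA is sequenced. Every region that lay inside one of the genes or within 20 kb of it was taken. This gave 4 of the 4137 distinct regions in the 3 organ lists, 1 each in Fas, Tnfrsf10b, Eda2r and Pidd1, and none for Casp8 and Dapk1. The 6 genes are a small part of the 21887 coding genes of the annotation.

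Each organ was represented by 5 libraries, and all came from mice labelled WT: 2 from mice that received 2 Gy of X-rays and were sampled at 3 h, 1 of input chromatin, and 2 from untreated mice. The labels give no strain, sex or age and do not name the antibody. The processed data are 1 list of regions per organ, which the labels attach to all 5 libraries of that organ and whose name refers to irradiation and to IgG, although no library is labelled IgG. No value belongs to a single library, so the effect of the X-rays and the spread between mice could not be measured, read depth is unknown, and no test between organs was possible. The lists contained 3872 regions for liver, 2604 for spleen and 2405 for thymus. A list is made from whole tissue, in which a change in the share of a cell type and a change within cells cannot be told apart. The lists hold no expression values, so the labelled organs could not be checked against marker genes.

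Death receptors are members of the tumour necrosis factor receptor family that carry a death domain in the cytoplasm. When a ligand binds, the domain recruits the adaptor Fadd, which in turn gathers and activates caspase-8. In hepatocytes this signal generally depends on amplification through the mitochondria, whereas in thymocytes it can suffice without it, and Fas is also central to the removal of activated lymphocytes. Several genes of the pathway are known targets of p53: in the human genes FAS and TNFRSF10B, p53 response elements lie in an early intron.

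The sequences upstream of the start sites of Fas, Eda2r and Pidd1 are shown because the 3 regions that all organs shared lay just downstream of those starts, and so outside these windows. They come from RefSeq on GRCm38.p6, the assembly that mm10 names, and give the 250 bases before the listed start, 5′ to 3′ on the strand of the gene.
Fas, chr19:34290409-34290658, plus strand: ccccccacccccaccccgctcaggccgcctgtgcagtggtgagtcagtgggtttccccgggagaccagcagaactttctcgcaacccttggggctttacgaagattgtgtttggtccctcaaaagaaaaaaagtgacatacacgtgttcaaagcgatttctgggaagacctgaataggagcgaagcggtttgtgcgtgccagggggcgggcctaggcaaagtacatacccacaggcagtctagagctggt
Eda2r, chrX:97377210-97377459, minus strand: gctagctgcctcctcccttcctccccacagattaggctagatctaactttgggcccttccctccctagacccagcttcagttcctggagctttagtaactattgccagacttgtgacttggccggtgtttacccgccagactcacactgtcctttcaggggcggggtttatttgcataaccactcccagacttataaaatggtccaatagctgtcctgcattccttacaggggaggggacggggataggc
Pidd1, chr7:141444026-141444275, minus strand: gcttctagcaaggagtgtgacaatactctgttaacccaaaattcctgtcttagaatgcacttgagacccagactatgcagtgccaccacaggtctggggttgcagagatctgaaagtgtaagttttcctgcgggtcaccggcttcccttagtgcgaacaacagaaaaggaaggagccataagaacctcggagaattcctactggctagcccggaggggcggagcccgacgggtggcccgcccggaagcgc
Windows that run to 50 bases after the start were searched for the exact p53 decamer consensus, the repeated unit of the p53 response element, which reads the same on both strands. Capitals would mark a match. None of the 5 genes with such a window (Fas, Eda2r, Pidd1, Casp8 and Dapk1; Tnfrsf10b has no entry) held one, and so all letters are in lower case. Of all 32851 windows in the genome, 8.36% held a match, as did 16.2% of the 247 windows that a region of all 3 lists overlapped. By organ, the share was 7.21% of the windows that a liver region overlapped, 11.2% for spleen and 11.4% for thymus, and 5.67% of those overlapped in the liver list alone. A region overlapped 0 of the 5 windows of these genes, and 5.24%, 1.54% and 1.28% of all windows in liver, spleen and thymus. The 0 is no separate result, because it follows from the places of the regions. Those of Fas, Eda2r and Pidd1 lay downstream of the windows, and Casp8 and Dapk1 had no region. A pair of adjoining decamers, with up to 2 of the 20 letters off and the 4 core C and G letters exact, was found in 0.326% of all windows, in 6.07% of those 247 and in none of the windows of these genes. No match says only that these letters are not in the windows. The sequences of the regions themselves were not analysed here.

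In the liver and spleen lists 4 of the 6 genes had a region within 20 kb, and in the thymus list 3. With the lists cut to equal length by their highest scores, the counts were 2 in liver, 4 in spleen and 3 in thymus. Of all coding genes, 15.3%, 11.3% and 11.6% met the same rule with those lists of equal length. With the full lists, 22.3% of all coding genes met the rule in liver, 12.8% in spleen and 11.6% in thymus. Longer genes met it more often. In liver, spleen and thymus, the shares were 18.7%, 9.58% and 8.46% of genes under 20 kb, the class of Tnfrsf10b and Pidd1, and 26.4%, 15.2% and 13.8% of genes of 20 to 100 kb, the class of Fas, Eda2r and Casp8. All 4 regions lay inside their gene, where 10.8% of coding genes held a liver region, 5.91% a spleen region and 5.29% a thymus region. The regions of Fas, Eda2r and Pidd1 were in all 3 lists, and 4.08% of coding genes held such a region. These are counts over few genes that were chosen as known members of the pathway, and no test was run on them. None of the 4 regions overlapped another annotated gene. The annotation used here gives gene ends without exons, so introns, exons and untranslated regions were not told apart.

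**Figure D1:**
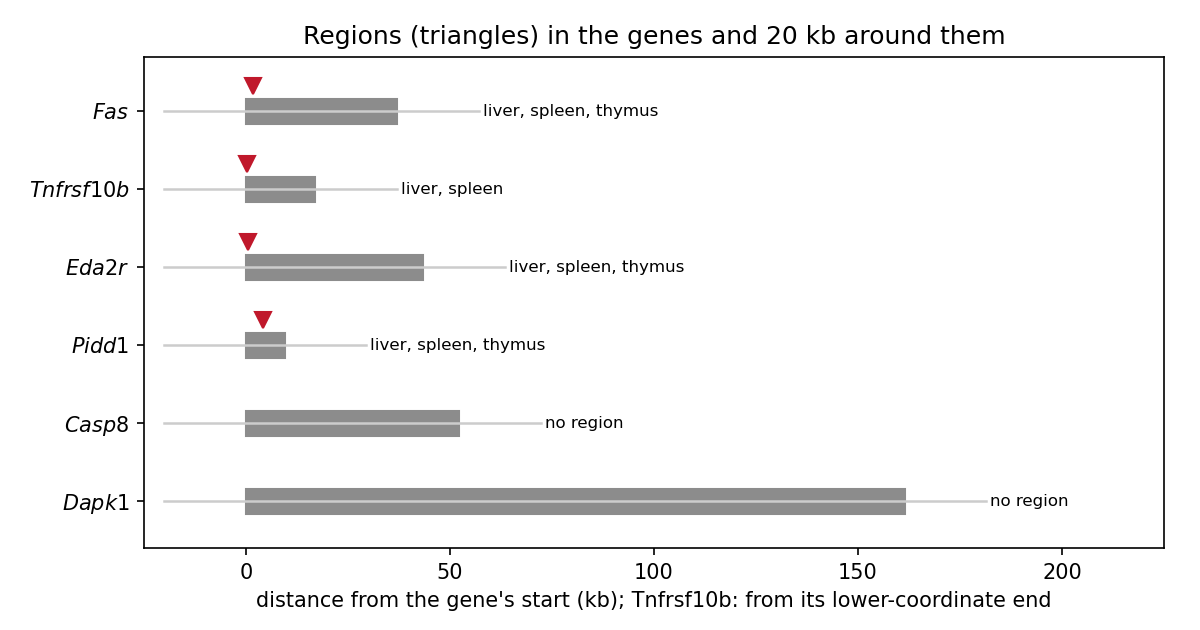
Place of each region (triangle) in the 6 genes (grey bars), with the 20 kb searched on either side (thin lines); the horizontal axis is the distance from the start end of the gene in kb, or from the lower-coordinate end for Tnfrsf10b. The regions of Fas, Tnfrsf10b and Eda2r lay within 2 kb of one end of the gene, that of Pidd1 lay further inside, and Casp8 and Dapk1 had none.

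Scores are the authors' own value per region on a scale that is not given, and are therefore reported as the percentile of the region within its list, where 100 is the highest score and 50 the middle of the list. A percentile describes a rank among the called regions of one organ. It does not measure an amount of p53, and equal amounts of binding could give different percentiles in lists of different make-up. The exact Clopper-Pearson 95% interval of each percentile was between 1.01 and 3.86 points wide, and it covers the counting of regions only, not the variation between mice.

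Fas encodes the receptor for Fas ligand (chromosome 19, 34290647 to 34327775, gene ID 14102). Its region spanned 34292201 to 34292550, 350 bp wide, from 1542 to 1891 bp downstream of the listed start. It stood at the 65.6 percentile of liver scores, the 57.3 percentile of spleen scores and the 86.8 percentile of thymus scores. Fas was the one member whose highest percentile was in thymus, 21.2 points above liver and 29.5 points above spleen. Of the 1930 regions that all 3 lists held, 591 (30.6%) had a thymus lead over liver at least as large. For the lead over spleen the number was 194 (10.1%). When ranked only against those 1930 regions, the percentiles were 62.6, 49.2 and 84.3 in liver, spleen and thymus. Against regions of the same width, a comparison chosen after the widths were seen, they were 43.0, 35.2 and 78.5, so that Fas lay below the middle of its width class in liver and spleen. The nearest other gene was Gm31355, a long noncoding RNA 13976 bp away, and the nearest other coding gene was Acta2, at 36616 bp.

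Eda2r encodes a receptor for ectodysplasin A2, which belongs to the same receptor family and lacks the death domain (chromosome X, 97333837 to 97377234, gene ID 245527). Its region also measured 350 bp, from 97376501 to 97376850, and lay 359 to 708 bp downstream of the listed start, on the minus strand. It stood at the 97.5 percentile in liver, rank 97 from the top of the list, at 54.6 in spleen and at 15.0 in thymus. The same region thus ranked near the top in liver, near the middle in spleen and low in thymus. The lead of liver over thymus was 82.6 points, and 27 of the 1930 shared regions (1.40%) had a lead at least as large. Over spleen the lead was 42.9 points, and 197 of them (10.2%) had one at least as large. Ranked against the 1930 shared regions alone, Eda2r stood at 95.2, 45.9 and 10.3 in the same order of organs. Regions within 1 kb of a gene end, of which this is one, ranked low as a class in the lymphoid organs, with median percentiles of 51.6 in liver, 20.3 in spleen and 22.9 in thymus. Within that class the Eda2r region stood at 98.2, 78.0 and 35.0. The order of the organs was the same, and the leads of liver were smaller than in the whole lists. The shares of 1.40% and 10.2% are over all shared regions and not over this class. How far the place near a gene end accounts for the order was not tested. Against regions of the same width the Eda2r region stood at 98.6, 33.6 and 12.2. In spleen this is below the middle of that width class.

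**Figure D2:**
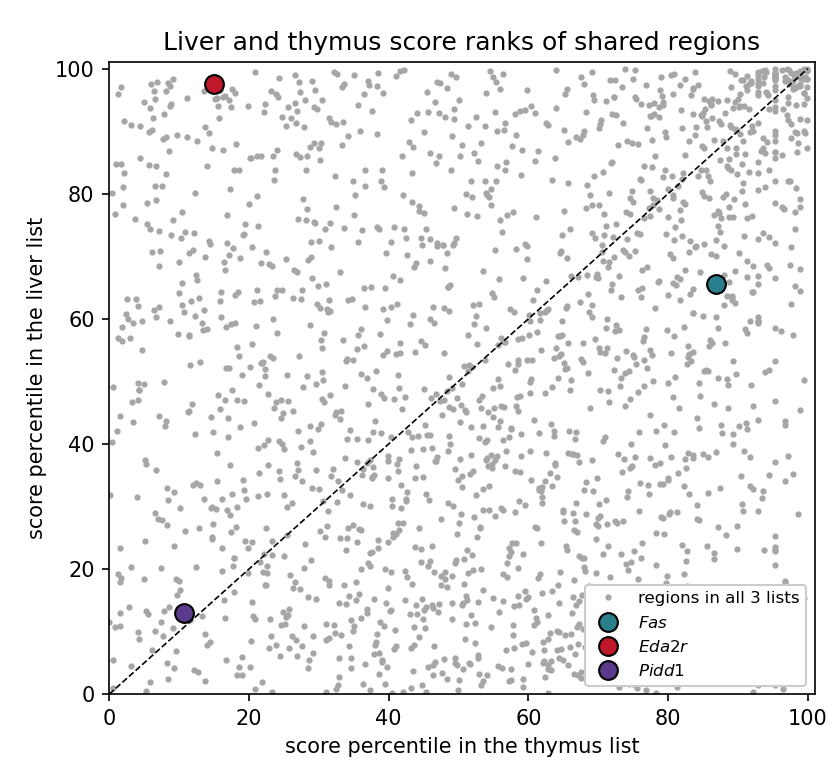
Score percentile in the liver list (vertical axis) against that in the thymus list (horizontal axis) for the 1930 regions in all 3 lists (grey points), with the regions of Fas, Eda2r and Pidd1 marked; the dashed line marks equal percentiles. Eda2r lies in the upper left corner (97.5 in liver, 15.0 in thymus), Fas to the right of the line (65.6 and 86.8) and Pidd1 in the lower left corner (13.0 and 10.7).

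Tnfrsf10b encodes the receptor for TRAIL, known as DR5 or Killer (chromosome 14, 69767472 to 69784411, gene ID 21933). Its region was 50 bp wide, the smallest width in the lists, and spanned 69767701 to 69767750, starting 229 bp inside the lower-coordinate end of the gene. It stood at the 15.4 percentile in liver and at 43.7 in spleen, and the thymus list did not hold it. Among the 2368 regions in both the liver and the spleen list, 530 (22.4%) fell behind in liver by as much as this region (28.3 points). Regions of this width made up 24.9% of the liver list, with a median percentile of 31.9, and 20.2% of the spleen list, with a median of 34.3. Against regions of the same width, a comparison chosen after the widths were seen, Tnfrsf10b stood at 26.2 in liver and 64.6 in spleen. The long noncoding RNA gene 4930480K23Rik ended 588 bp from the region, so the region is close to the ends of both genes. In thymus the nearest region lay 181.2 kb from Tnfrsf10b, in Pebp4. Just beyond the 20 kb limit, 34.6 kb from Tnfrsf10b, a further region overlapped the ends of Chmp7 and 4930480K23Rik (69732501 to 69732850), at 76.8 in liver and 4.88 in spleen.

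Pidd1 encodes a death-domain adaptor that was first described as induced by p53 and that forms the PIDDosome with Cradd and caspase-2 (chromosome 7, 141438113 to 141447565, gene ID 57913). Its region spanned 141443201 to 141443450, 250 bp, and lay 575 to 824 bp downstream of the listed start on the minus strand and 4115 bp inside the higher-coordinate end of the gene. Its percentiles were 13.0 in liver, 35.0 in spleen and 10.7 in thymus. The region was thus called in every organ and ranked in the lower part of each list. Its neighbourhood is dense with genes: the coding genes Rplp2 and Slc25a22 began or ended 4201 and 5327 bp from it, and position alone does not assign a region to a gene.

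Casp8, the initiator caspase of the pathway (chromosome 1, 58795233 to 58847503), and Dapk1, a calmodulin-regulated kinase with a death domain (chromosome 13, 60601723 to 60763191), had no region within 20 kb in any list. The nearest region to Casp8 was the same in all 3 lists, 144.5 kb from the gene (58650401 to 58650750). It overlapped no annotated gene, and its percentiles in liver, spleen and thymus were 90.5, 88.1 and 77.0. Between it and Casp8 lies Cflar, which encodes the caspase-8 inhibitor c-FLIP and had no region within 20 kb either. For Dapk1 the nearest region was 778.6 kb away in liver, in Tut7, and 1243 kb away in spleen and thymus. Dapk1 was the longest of the 6 genes, at 161.5 kb; of the 2429 coding genes over 100 kb, 26.9% had a region of the liver list within 20 kb, 20.8% one of the spleen list and 19.6% one of the thymus list.

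Set side by side, the members did not rank in a common order of organs. Of the lists that held each region, liver ranked Eda2r highest, spleen Pidd1 and Tnfrsf10b, and thymus Fas. Eda2r led the members in liver, Fas and Eda2r were close together in spleen (57.3 and 54.6), and Fas led in thymus. Pidd1 was the lowest of the members in each list, next to Tnfrsf10b in liver (13.0 against 15.4) and to Eda2r in thymus (10.7 against 15.0). This order of members holds for ranks within the whole lists. Against regions of the same place relative to gene ends, Tnfrsf10b was the lowest in liver (12.0 against 15.9 for Pidd1). In spleen, Eda2r (78.0) and Tnfrsf10b (72.5) then stood above Fas (49.7).

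**Figure D3:**
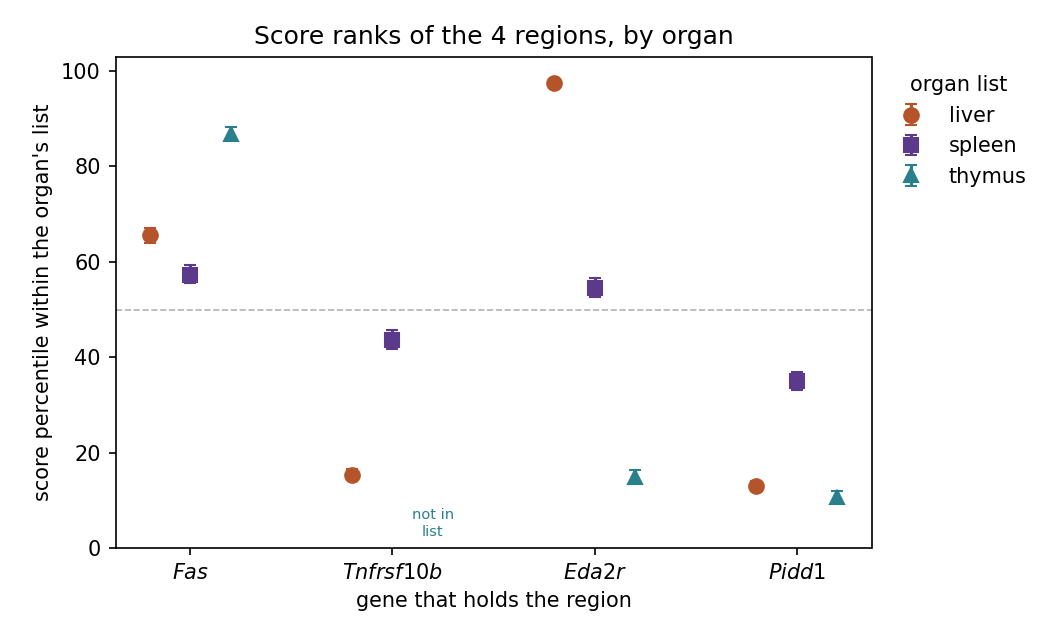
Score percentile (vertical axis) of the regions in Fas, Tnfrsf10b, Eda2r and Pidd1 within the liver, spleen and thymus lists; bars are exact 95% intervals for counting error and the dashed line is the middle of each list. Eda2r stands at 97.5 in liver and 15.0 in thymus, Fas is highest in thymus at 86.8, and the thymus list does not hold the Tnfrsf10b region.

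Among the regions of all 3 lists with a coding gene within 20 kb, those most like each member were taken by the Euclidean distance between the 3 percentiles. The nearest to Fas were in Nup214 (65.9, 52.995 and 88.8 in liver, spleen and thymus; distance 4.78 points) and 7523 bp from Slfn2 (67.9, 57.0 and 82.5; 4.91). The nearest to Eda2r were a region 7458 bp from Mup20 (90.7, 60.6 and 13.8; distance 9.19 points) and one inside Cdkn1a (chromosome 17, 29094301 to 29094750), the cell cycle inhibitor gene, at 96.4, 43.6 and 13.6 (11.1 points). For Pidd1 they were 4919 bp from Gimd1 (9.30, 33.7 and 7.73; distance 4.87 points) and in 4921528I07Rik (15.0, 32.1 and 16.4; 6.77). The likeness between Cdkn1a and Eda2r concerns the named Cdkn1a region alone. Nearby regions of all 3 lists, at slightly lower coordinates of chromosome 17, ranked high in liver, spleen and thymus alike.

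A further 48 genes of the pathway were examined by role: ligands, receptors, adaptors, kinases and ubiquitin modifiers, proteases, inhibitors and factors that link to the mitochondria or act downstream. With the same window, 14 of them (29.2%) had a liver region, 8 (16.7%) a spleen region and 4 (8.33%) a thymus region, against 22.3%, 12.8% and 11.6% of all coding genes. The wider pathway was therefore near the background of the lists, and nothing is read from its count. The 14 genes shared 15 distinct regions, all of them in the liver list, and 34 genes had none.

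In liver and in spleen, 1 ligand gene (14.3%) and 1 receptor gene (8.33%) had a region. The shares of all coding genes were 22.3% and 12.8%. Counts by role rest on few genes, and nothing is read from them here or below. Of 7 ligand genes, Tnfsf12, which encodes TWEAK, had a region 4190 bp away that lay as near or nearer to Senp3 and Tnfsf13 (29.0 in liver, 19.6 in spleen). Of 12 other receptor genes, Tnfrsf26, a receptor of the same family that is clustered with decoy receptors of TRAIL in mice, had one 19835 bp away, near the limit of the window and nearer to Cars (79.4 in liver, 10.9 in spleen). Fasl, Tnfsf10 and Tnf, the ligands of Fas, of the TRAIL receptor and of the TNF receptors, had none, and neither did Tnfrsf1a and Tnfrsf1b.

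Of 8 adaptor genes, 4 had a region in the liver list, 0 in the spleen list and 2 in the thymus list. The region of Fadd, the adaptor of Fas and of the TRAIL receptor, was 50 bp wide and lay 60 bp outside the gene (24.4 in liver, 4.80 in thymus). It fell wholly within the RefSeq promoter window, 60 to 109 bp upstream of the listed start, and is shown because it is a called region of the pathway whose full sequence that window holds; it contained no exact p53 decamer.
Fadd, chr7:144582501-144582550, minus strand: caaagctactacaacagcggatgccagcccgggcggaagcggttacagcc
The region of Tradd, the adaptor of the TNF receptor, was 7 bp outside that gene and also in or within 7 bp of Fbxl8 (61.9 in liver, 3.78 in thymus). Those of Traf2 (20.8) and Daxx (44.4) were in the liver list alone, 17132 and 18554 bp away, with other coding genes as near or nearer.

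Of 8 kinase and ubiquitin genes, 3 had a region in liver and 2 in each of spleen and thymus. Dapk3, a relative of Dapk1, held a region of 550 bp (chromosome 10, 81192401 to 81192950) with percentiles of 97.6, 35.8 and 6.03 for liver, spleen and thymus. It had 2 more regions within 20 kb in the liver list. Its order of organs was that of Eda2r. Stk17b, a kinase related to the Dapk family and known from T cells as DRAK2, had a region 2264 bp outside the gene (chromosome 1, 53787501 to 53787750) that ranked lowest in liver, with percentiles of 10.7, 94.5 and 54.6 for liver, spleen and thymus. Otulin, a deubiquitinase for linear ubiquitin chains, had a region in liver alone (82.4).

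Among 3 other caspase genes, Casp2, the caspase of the PIDDosome, had a region at its start in liver alone (37.1), and Casp6 and Casp9 had none. Of 6 inhibitor genes, Birc2, which encodes cIAP1, held a region at 75.4 in liver and 22.0 in spleen; the same region counts for its neighbour Birc3, 10118 bp away. Htra2, a mitochondrial protease, shared a region with Aup1 (7.28 in liver, 3.38 in spleen), and Mlkl, the effector of necroptosis, had one 10905 bp away and nearer to Rfwd3 (59.0 in liver, 14.7 in spleen). Bid, which carries the signal of caspase-8 to the mitochondria, had none.

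The liver percentile was the highest for 8 of the 9 regions near these 48 genes that the liver list shared with another list, the exception being Stk17b, and for 1 of the 4 regions of the members (Eda2r). Over all 2617 such regions the share was 45.9%. It was 75.2% of the 829 regions within 1 kb of a gene end and 32.3% of the 1788 others. How far closeness to gene ends accounts for the count near the 48 genes was not tested.

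**Figure D4:**
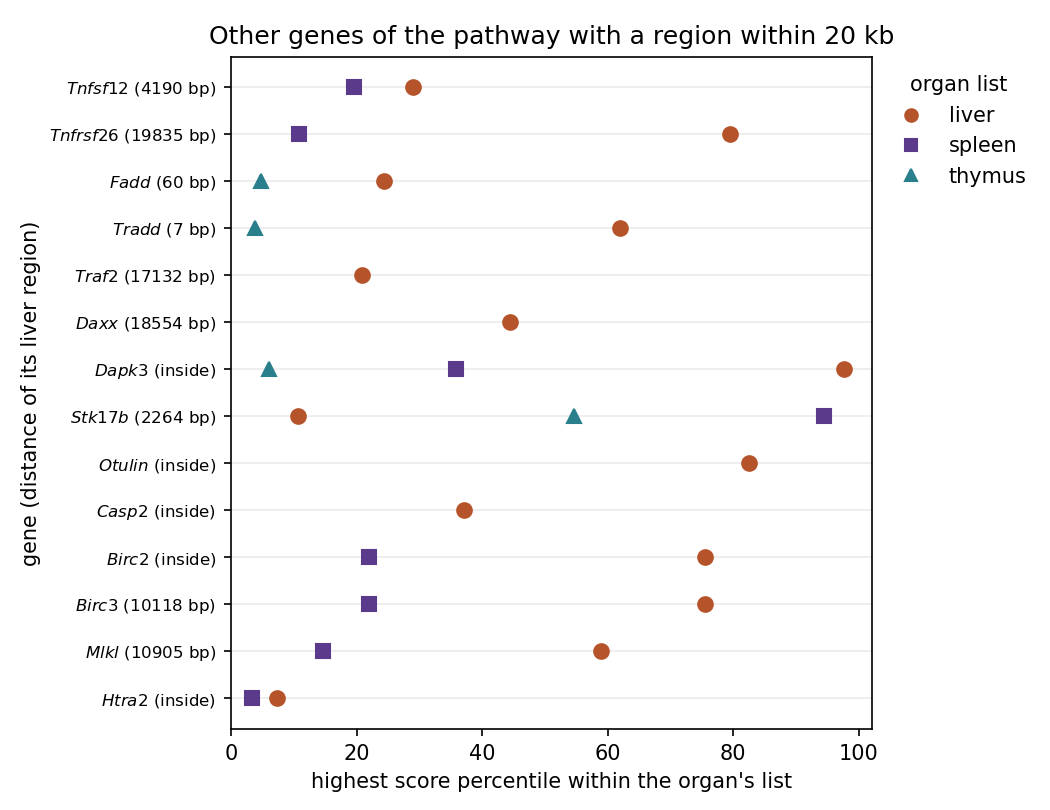
Highest score percentile (horizontal axis) within 20 kb of the 14 other pathway genes that had a region, in the liver (circles), spleen (squares) and thymus (triangles) lists; labels give the distance of that liver region from the gene. Liver symbols lie to the right of the others in each gene that has more than 1 list, except Stk17b (10.7 in liver, 94.5 in spleen).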

How the data were processed

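p53 ChIP-seq of liver, spleen and thymus was represented by 3 headerless lists of regions, 1 per organ, with 6 columns. The fifth column is a score per region that the authors deposited, on a scale that no source used here gives; it was turned into a percentile of rank within its list, and tied scores took their mean rank. The submitters' processing notes name the build mm10. Aligner, region caller, settings and any pooling of libraries are not given here, so thresholds and control subtraction may shape which regions are listed. Region ends lie on multiples of 50 bp.

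Genes came from RefSeq (GRCm38.p6), on the autosomes and sex chromosomes; all 6 members and 48 other pathway genes matched by symbol; 2 further genes of the list are not reported here. A region counted when at least 1 bp lay within 20 kb of a gene. Shares of all coding genes under the same rule served as background. Named were all members, every listed pathway gene with a region, overlapped and neighbouring genes, and the 2 regions most like each member. Members and lists were chosen with earlier results of these data known. Counting functions were checked on simulated data. Alternatives were other windows (5, 10 and 50 kb), the upper 50% of scores, lists of equal length, region midpoints and other rank populations. Python 3.11.15, pandas 2.3.3, NumPy 2.4.6 and SciPy 1.17.1 were used.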

Additional observations from a re-analysis of the deposited data

How the results depend on the processing

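With lists of equal length, or with only the upper 50% of scores, liver kept a region at 2 of the 6 genes (2 regions), against 4 in the full list; with equal lengths spleen had 4 and thymus 3. In the upper 50%, spleen had 2 members with a region (2 regions) and thymus 1 (1 region), there were 2 distinct regions, and 1 was in all 3 lists. There the other pathway genes with a region numbered 7, 1 and 1 in liver, spleen and thymus, and the share of all coding genes was 12.7%, 5.81% and 5.23%. Equal lengths left 8, 7 and 4 other pathway genes in liver, spleen and thymus. The shares of all coding genes were then 15.3%, 11.3% and 11.6%. Windows of 5 kb gave 9 other pathway genes in liver and 5 in spleen, and shares of coding genes of 8.11% in spleen and 7.17% in thymus; 10 kb also gave 9 in liver and 5 in spleen. Windows of 50 kb gave 22, 16 and 11 other pathway genes in liver, spleen and thymus, beside 33.4%, 20.9% and 19.2% of all coding genes. These follow from fewer regions or other windows. The counts of members were the same at 5, 10 and 50 kb, and all counts were within 1.5 times with region midpoints.

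Against regions of equal width, chosen once the widths were known, Pidd1 stood at 8.65, 32.6 and 9.18 in liver, spleen and thymus. Against regions of the same place relative to gene ends, Fas stood at 66.6, 49.7 and 85.0, Pidd1 at 15.9, 24.3 and 5.77, and Tnfrsf10b at 12.0 in liver and 72.5 in spleen. Here Fas and Pidd1 counted as away from gene ends and Tnfrsf10b as within 1 kb of one. Gene ends were the outer ends of annotated genes, so the nearness of the Pidd1 region to its listed start did not count. No paired analysis was possible because no values per library were analysed here. For the same reason no replicate could be left out, and read depth, which sets how many weak regions reach a list, is unknown.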
